A study of Mus musculus with 36 samples.

Results

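Hypoxia and glycolysis genes were followed in the RNA of lung lavage macrophages of Scnn1b-transgenic (Tg) mice and of wild-type (WT) littermates. The set holds 35 genes listed by their known roles: 2 carriers of glucose and lactate, 15 glycolytic enzymes, 3 regulators of glycolysis, 12 other targets of hypoxia signalling, the 2 alpha subunits Hif1a and Epas1, and Fbp1, an enzyme of glucose synthesis. A gene was represented by the array feature annotated with its symbol alone, and by the feature of highest mean over all arrays where several existed. This gave 33 genes among 28940 analysed features, with 13 of the 15 enzymes. Gpi1 and Eno1 had no such feature and are not analysed here.

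Cells that lack oxygen stop hydroxylating the alpha subunits of hypoxia-inducible factor (HIF). The stabilised subunits pair with ARNT, bind DNA at short sites with the core letters ACGTG or GCGTG, and raise genes for glucose uptake, glycolysis, vessel growth and their own degradation. Macrophages also use HIF signalling and glycolysis when they are activated by inflammatory stimuli, whereas resident alveolar macrophages live in an oxygen-rich airspace.

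The study asked how a dry airway surface changes gene expression in lung macrophages from birth to adulthood. The transgene raises Scnn1b, a subunit of the sodium channel of epithelia, and is driven by the Scgb1a1 promoter of airway club cells, so that the macrophages themselves are not its target. Macrophages were the Ly-6G-negative cells of the lavage of male mice, and 12 ng of their RNA was amplified for each Affymetrix Mouse Gene 1.0 ST array. The 36 arrays fell into 10 groups, all of strain C57Bl/6N Tac. In specific pathogen free (SPF) housing there were 3 Tg and 3 WT arrays at postnatal day (PND) 0, 4 Tg and 4 WT at PND 3, 4 Tg and 4 WT at PND 10, and 4 Tg and 4 WT at PND 42. In germ-free (GF) housing there were 3 Tg and 3 WT arrays at PND 42. Arrays of PND 0, 3 and 10 held cells pooled from 3 pups of one genotype, and arrays of PND 42 held single mice. GF mice came from another facility than SPF mice, so that germ status and facility cannot be told apart.

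Values are log2 intensities and ran between 1.86 and 13.2 over all arrays, with array medians between 3.72 and 4.06. The mean level of 14 alveolar macrophage markers lay between 7.96 and 8.55 on Tg arrays and between 8.48 and 8.96 on WT arrays at PND 0, and between 9.03 and 10.5 on every later array. Scnn1b itself read 5.37 to 6.03 on Tg arrays and 3.09 to 3.55 on WT arrays at PND 3, and was at 5.47 on the library labelled Tg PND 0 replicate 3, inside the WT range of 4.06 to 6.68 at that age. At PND 10 and 42 it was low in both genotypes, at 3.26 to 4.18 on Tg and 3.10 to 3.67 on WT arrays, and the Tg and WT ranges overlapped in SPF mice at both ages, so that it checks few labels there. The spread within groups was largest at PND 0, with a median SD over features of 0.193 in Tg and 0.212 in WT mice, against 0.134 to 0.168 in the other groups. Of the 33 genes, 23 had group means above 4.09, the highest array median over the whole table, in all 10 groups, whereas Eno2, Adm and P4ha2 were at or below it, here called near background, in every group.

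Promoters of 32 of the 35 genes were matched in RefSeq (GRCm38.p6, 250 bases before to 50 bases after the start of transcription), with 45 windows in all. Either core motif, ACGTG or GCGTG, read on both strands, occurred in 28 of these 32 genes (87.5%), against 46.7% of 27025 genes in the table. ACGTG alone occurred in 22 of the 32 (68.8%), against 21.8% of all genes. These shares count a gene by any of its windows. By window, ACGTG occurred in 55.6% of the 45 windows and in 19.6% of all 32851. The set was listed by known roles in hypoxia signalling and glycolysis, so that this excess tests nothing about these data. The genes compared were not matched for base composition. The palindrome CACGTG, the E-box core, holds ACGTG on both strands and counts as 2 matches. The sequences are those of 5 genes that rose in Tg macrophages at PND 3, in falling number of matches, and Fbp1, which has no match and followed another course. Capitals mark every match on either strand, so that CACGT and CACGC are matches on the opposite strand, and a match is a run of letters, not a measured binding site.
Ldha, chr7:46845554-46845853, plus strand, with 7 matches: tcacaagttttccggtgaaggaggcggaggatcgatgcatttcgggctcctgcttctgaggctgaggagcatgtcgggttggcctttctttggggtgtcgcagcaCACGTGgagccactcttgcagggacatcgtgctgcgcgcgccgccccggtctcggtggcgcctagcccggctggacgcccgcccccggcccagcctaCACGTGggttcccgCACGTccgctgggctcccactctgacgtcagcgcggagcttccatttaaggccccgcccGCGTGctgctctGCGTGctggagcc
Bnip3, chr7:138909457-138909756, minus strand, with 5 matches: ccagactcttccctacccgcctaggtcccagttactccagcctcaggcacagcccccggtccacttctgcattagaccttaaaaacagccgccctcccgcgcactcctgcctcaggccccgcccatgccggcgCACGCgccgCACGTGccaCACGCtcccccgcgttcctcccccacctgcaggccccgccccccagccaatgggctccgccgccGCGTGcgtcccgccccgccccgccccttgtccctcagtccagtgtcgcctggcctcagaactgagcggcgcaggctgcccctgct
Ankrd37, chr8:45999801-46000100, minus strand, with 4 matches: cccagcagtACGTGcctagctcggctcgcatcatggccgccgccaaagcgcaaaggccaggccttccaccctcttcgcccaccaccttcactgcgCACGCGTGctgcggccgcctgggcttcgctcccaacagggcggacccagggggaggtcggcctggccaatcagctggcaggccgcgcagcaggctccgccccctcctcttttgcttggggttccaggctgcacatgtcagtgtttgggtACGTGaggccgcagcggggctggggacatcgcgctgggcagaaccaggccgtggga
Slc16a3, chr11:120948817-120949116, plus strand, with 2 matches: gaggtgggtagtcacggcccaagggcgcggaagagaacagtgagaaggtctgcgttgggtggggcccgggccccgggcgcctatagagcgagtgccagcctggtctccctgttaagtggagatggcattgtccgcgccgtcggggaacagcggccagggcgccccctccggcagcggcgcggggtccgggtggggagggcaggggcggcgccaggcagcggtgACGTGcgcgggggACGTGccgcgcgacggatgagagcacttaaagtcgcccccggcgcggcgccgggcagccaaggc
Egln3, chr12:54203825-54204124, minus strand, with 1 match: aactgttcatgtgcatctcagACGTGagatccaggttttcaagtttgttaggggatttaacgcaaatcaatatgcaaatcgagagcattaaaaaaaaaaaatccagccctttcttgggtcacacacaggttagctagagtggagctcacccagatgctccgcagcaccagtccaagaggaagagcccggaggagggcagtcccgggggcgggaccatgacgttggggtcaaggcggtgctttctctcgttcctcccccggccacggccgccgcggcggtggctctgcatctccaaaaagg
Fbp1, chr13:62888233-62888532, minus strand, with 0 matches: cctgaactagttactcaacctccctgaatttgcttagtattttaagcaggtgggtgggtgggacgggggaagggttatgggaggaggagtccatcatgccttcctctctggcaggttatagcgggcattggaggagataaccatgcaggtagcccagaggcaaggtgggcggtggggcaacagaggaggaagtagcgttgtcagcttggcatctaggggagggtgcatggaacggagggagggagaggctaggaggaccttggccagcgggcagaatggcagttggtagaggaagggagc
In Ldha, the enzyme that turns pyruvate into lactate, 5 of the matches are ACGTG and 2 are GCGTG, and 4 of the 5 come from 2 copies of CACGTG. In Slc16a3 both matches are ACGTG, beginning 27 and 14 bases before the start. Vegfa had no match in 1 of its windows and 2 in another, and the absence of a match says only that these letters are not in the window. Ldha has another window with fewer matches than the one shown. The sequences shown do not stand for the whole set. Tpi1, which rose in Tg macrophages at PND 3, has no match, and Pfkp and P4ha2, never called between genotypes, have several.

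Macrophages of Tg mice carried more RNA of many of these genes at PND 3, and of fewer and partly different genes at later ages. At PND 3, 16 of the 33 genes were higher in Tg than in WT mice and none was lower (adjusted p of 0.05 or less, limma), where 2.17% of all features were higher and 1.87% lower. On 18 genes every Tg array lay above every WT array, which held for 4.63% of all features, and on none did every Tg array lie below (5.92% of all features). The median log2 change of the 33 genes was 0.51, beside 0.00 for all features. The glycolysis group of carriers, enzymes and regulators had 9 of 18 genes higher, and the other hypoxia targets had 6 of 12.

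The count was 6 higher and none lower at PND 10 (1.13% and 0.435% of all features), with a median change of 0.19. At PND 42 in SPF mice 7 genes were higher and 1 was lower (2.72% and 1.77%), with a median of 0.23, and in GF mice 9 were higher and none was lower (3.14% and 1.77%), with a median of 0.28. At PND 0, 1 gene was higher and 1 lower (2.74% and 1.59%), a share near that of all features, and the median was -0.11. All Tg arrays lay above the WT arrays for 7 genes at PND 10, 11 at PND 42 SPF and 13 at PND 42 GF (4.17%, 5.59% and 9.21% of all features), and below them for none, 5 and 4 (2.9%, 5.64% and 12.1%). At PND 0 none lay above and 3 below (4.21% and 6.69%). The change itself differed between PND 42 SPF and PND 3 for 7 genes: it was larger in adults for Epas1 and Fbp1 and smaller for Pfkfb3, Tpi1, Slc16a3, Vegfa and Bnip3 (0.705% and 0.522% of all features). Between PND 10 and PND 3 it differed for Vegfa, where it was smaller at PND 10, and for none was it larger (0.0518% and 0.00346% of all features). Slc2a1 and Hif1a were the 2 genes that rose in 4 comparisons, namely PND 3, PND 10 and PND 42 in both housings. Genes not called in any of the 5 comparisons numbered 11: Pfkp, Pfkfb4, Aldoa, Aldoc, Eno2, Pkm, Pdk1, Egln1, P4ha1, P4ha2 and Mxi1.

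**Figure D1:**
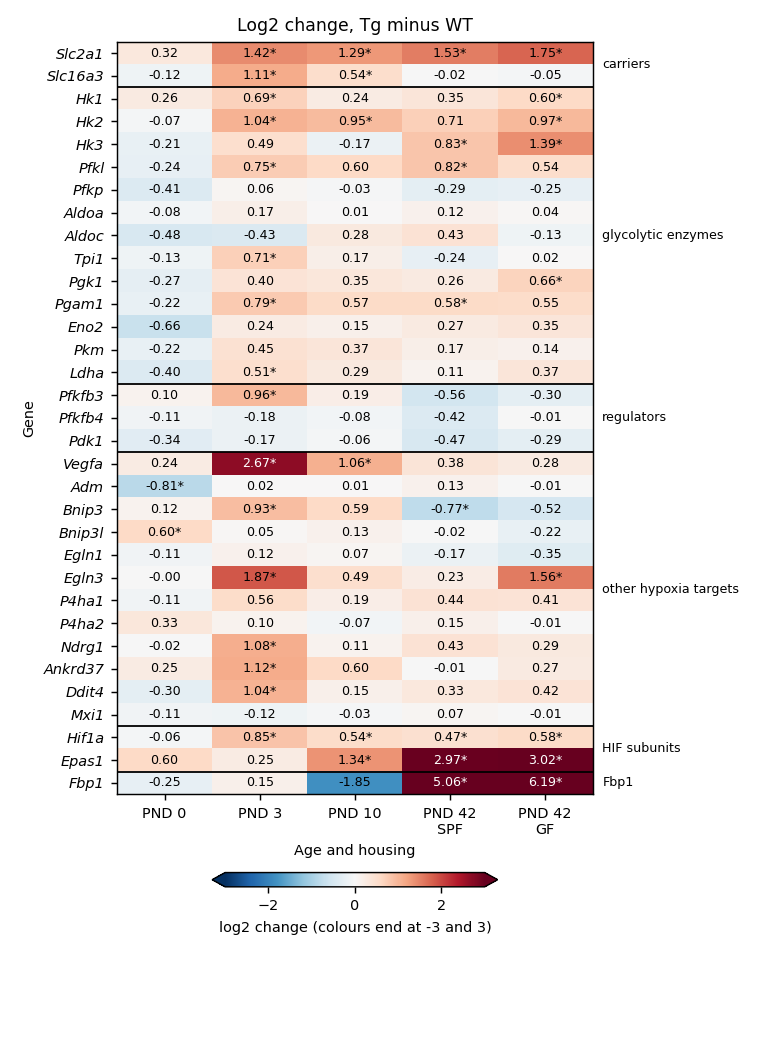
Log2 change, Tg minus WT, of the 33 genes (rows, grouped by role) in the 5 comparisons of genotype (columns); numbers give the change, colours end at -3 and 3, and an asterisk marks an adjusted p of 0.05 or less. The PND 3 column has 16 rises, more than any other, with Vegfa at 2.67, whereas Epas1 and Fbp1 were highest at PND 42 with changes of 2.97 and 5.06 in SPF mice.

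**Figure D2:**
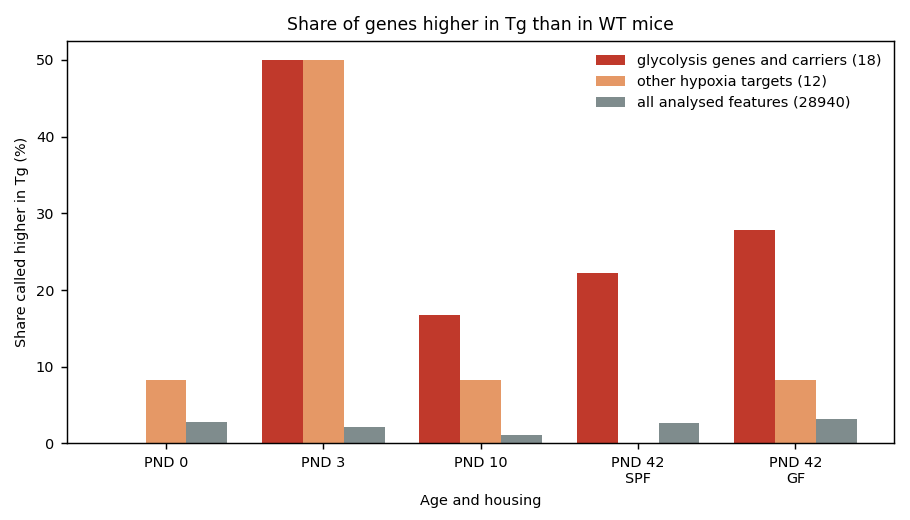
Share of genes called higher in Tg than in WT macrophages (percent, vertical axis, starting at 0) by age and housing, for the glycolysis group of 18 genes, the 12 other hypoxia targets and all 28940 features. Both groups reached 50% at PND 3, and at PND 42 in SPF mice the glycolysis group was at 22.2% and the other hypoxia targets at 0%.

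Markers of other cells moved in the same comparisons. At PND 3, 7 of 20 neutrophil markers were higher in Tg mice and none lower, with a mean level of 6.41, 6.63, 7.22 and 6.18 on the Tg arrays and 5.96, 4.97, 4.82 and 5.03 on the WT arrays. The granule genes Elane, Mpo, Prtn3, Camp and Ngp were near background in all groups, whereas other granule genes were above it in some groups. At PND 3 the Tg and WT means were 10.89 and 5.54 for Lcn2, 5.39 and 3.44 for Mmp9, 4.62 and 3.72 for Ltf, and 5.60 and 6.55 for Mmp8. At the same age 2 of 6 monocyte markers were higher and 1 lower, and 6 of 14 alveolar macrophage markers were lower, with a mean level of 9.03 to 9.36 on Tg arrays and 9.52 to 9.75 on WT arrays. At PND 10, 1 neutrophil marker was higher and 1 lower, and 2 monocyte markers were higher. The mean of 11 alveolar epithelial markers lay above WT at this age, without overlap. It was 5.076 to 5.301 on Tg and 4.774 to 5.003 on WT arrays. At PND 42, 8 of 11 dendritic cell markers were higher in SPF mice (5.32 to 5.74 on Tg and 4.55 to 4.65 on WT arrays) and 6 of 11 in GF mice (5.59 to 6.16 on Tg and 4.51 to 4.76 on WT arrays). The mean of the 20 neutrophil markers was also higher without overlap in adults, at 4.66 to 4.95 on Tg and 4.37 to 4.41 on WT arrays in SPF mice (3 markers higher and 2 lower) and at 4.94 to 5.38 on Tg and 4.44 to 4.48 on WT arrays in GF mice (4 higher and 2 lower). In GF adults the mean of 12 lymphocyte markers was 4.13 to 4.66 on Tg and 3.83 on WT arrays (4 higher), and that of 6 monocyte markers 6.69 to 7.01 on Tg and 6.34 to 6.50 on WT arrays (1 higher and 2 lower). The mean of 11 alveolar epithelial markers was below WT in SPF adults, at 4.39 to 4.63 on Tg and 4.75 to 4.97 on WT arrays (1 higher and 2 lower). At PND 0, 12 of 16 skeletal muscle markers were higher, at 5.40 to 6.29 on Tg and 3.50 to 3.8 on WT arrays. The mean of 10 fibroblast markers at PND 0 was 4.42 to 7.41 on Tg and 4.34 to 5.03 on WT arrays, which overlapped. The part of these markers in the changes of hypoxia and glycolysis genes was not tested. In such bulk RNA, fewer cells of a type and less RNA per cell cannot be told apart.

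Among the carriers, Slc2a1, the glucose carrier GLUT1 of the plasma membrane, was the most persistent. At PND 3 its values were 9.62, 9.83, 9.62 and 9.42 on Tg arrays and 8.75, 8.05, 7.78 and 8.22 on WT arrays. At PND 10 they were 9.03, 9.15, 9.43 and 9.22 in Tg and 7.98, 7.87, 8.12 and 7.69 in WT mice. No Tg array overlapped the WT arrays at either age. At PND 42 in SPF mice Slc2a1 read 8.40, 8.44, 8.39 and 8.45 on Tg arrays against 6.71, 6.65, 7.05 and 7.15 on WT arrays, and in GF mice 8.0, 8.77 and 8.82 against 6.92, 6.75 and 6.69. The changes were 2.68-fold at PND 3 (log2 1.42 ± 0.17 SE, adjusted p = 3.22e-06), 2.45-fold at PND 10 (adjusted p = 2.42e-05), 2.89-fold at PND 42 SPF (adjusted p = 3.57e-07) and 3.35-fold at PND 42 GF (adjusted p = 5.74e-07). At PND 0 the groups overlapped, with 8.89, 9.37 and 9.19 in Tg and 8.95, 9.02 and 8.52 in WT mice (adjusted p = 0.463). In WT mice Slc2a1 fell by 0.63 between PND 0 and PND 3 and fell by 1.03 between PND 10 and PND 42 on the log2 scale.

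Slc16a3 encodes MCT4, the carrier that exports lactate from glycolytic cells. Its values at PND 3 were 7.09, 7.73, 7.31 and 7.37 on Tg arrays and 6.10, 6.33, 6.25 and 6.4 on WT arrays, a 2.15-fold difference without overlap (adjusted p = 6.66e-06). At PND 10 the Tg arrays read 6.36, 6.65, 6.94 and 6.68 and the WT arrays 6.27, 6.26, 6.08 and 5.88, again without overlap (1.45-fold, adjusted p = 0.0474). The PND 10 call was lost in 15 of 18 alternative analyses, among them the omission of any array except Tg replicate 1 (0.44 to 0.58, adjusted p of 0.0568 to 0.191). At PND 42 the genotypes overlapped in both housings, with changes of -0.02 in SPF and -0.05 in GF mice. The change at PND 42 SPF was smaller than that at PND 3 by 1.12 on the log2 scale, and this difference itself passed the test (adjusted p = 0.00152).

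Glycolytic enzymes rose in part at PND 3, with 6 of 13 higher, none lower and a median change of 0.49. These were Hk1, Hk2, Pfkl, Tpi1, Pgam1 and Ldha, from hexokinases at the head of the pathway to lactate dehydrogenase at its end. Hk2, an inducible hexokinase that traps glucose in the cell, read 5.74, 6.93, 6.59 and 6.03 on Tg arrays and 5.73, 4.91, 5.01 and 5.50 on WT arrays (2.05-fold, adjusted p = 0.00567). The lowest Tg array lay just above the highest WT array, which was replicate 1. That WT library also had the highest WT values of Pgam1, Slc2a1 and Egln3 and the highest neutrophil marker mean of its group.

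Pgam1, phosphoglycerate mutase, had 10.27, 10.46, 10.14 and 10.16 on Tg arrays and 9.96, 9.30, 9.19 and 9.43 on WT arrays at PND 3, without overlap (1.73-fold, adjusted p = 0.00151). Pfkl, a subunit of phosphofructokinase, the committing step, read 6.72, 7.33, 7.38 and 6.97 in Tg and 6.68, 6.15, 6.05 and 6.5 in WT mice (1.69-fold, adjusted p = 0.0137). Tpi1, triose phosphate isomerase, read 8.10, 8.31, 8.37 and 8.43 in Tg and 7.75, 7.51, 7.48 and 7.62 in WT mice (1.64-fold, adjusted p = 0.00048). All Tg arrays lay above all WT arrays in each of these genes, by the least in Pfkl. A second Tpi1 feature with a mean of 2.72, at background, changed by 0.11 (adjusted p = 0.722). Hk1 (1.62-fold, adjusted p = 0.00122) and Ldha (1.43-fold, adjusted p = 0.0302) also passed. Ldha overlapped, with Tg replicate 1 at 9.39 and WT replicate 1 at 9.43. The Pfkl call was lost without Tg replicate 2 or 3 or WT replicate 2 or 3 (0.66 to 0.69). The Ldha call was lost without these or WT replicate 4 (0.38 to 0.50), and on median centring (0.47, adjusted p = 0.0832). Both calls were lost in a fit on the PND 3 arrays alone (adjusted p = 0.0563 for Pfkl and 0.112 for Ldha).

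Of the 7 enzymes not called at PND 3, Pkm and Aldoa had Tg arrays all above the WT arrays with changes of 0.45 (adjusted p = 0.109) and 0.17 (adjusted p = 0.482). Pkm, pyruvate kinase, had another feature that passed at PND 3 (0.51, adjusted p = 0.00193) and at PND 10 (0.65, adjusted p = 2e-04). Pgk1, the enzyme of the first ATP-forming step, had a change of 0.40 with an adjusted p of 0.0504. A Pgk1 feature of lower mean passed at PND 3 (0.46, adjusted p = 0.0322). Aldoc was the one enzyme with a negative change, and its values overlapped, with 8.27, 8.19, 7.52 and 8.17 in Tg and 8.64, 8.46, 8.23 and 8.55 in WT mice (-0.43, adjusted p = 0.198). A second Pgk1 feature had the same mean (9.14) and the same changes as the main one. The alternative of a second feature therefore repeats the main one for Pgk1. Several of these enzymes have processed pseudogenes in the mouse genome. Which locus a feature reads, and whether the probes also read pseudogenes, was not tested here for any gene of the set.

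At PND 10 only Hk2 of the 13 enzymes passed, with 6.03, 5.79, 5.81 and 5.83 on Tg arrays and 4.54, 4.91, 5.0 and 5.23 on WT arrays (1.93-fold, adjusted p = 0.0268), a call lost on omission of any array except Tg replicate 2 and WT replicate 4 (0.82 to 0.97). A second Pgam1 feature of nearly the same mean passed at PND 10 (0.54, adjusted p = 0.0336) and at PND 42 GF (0.55, adjusted p = 0.0339), where the main feature did not (adjusted p = 0.0564 and 0.078). The change was positive for 11 enzymes, with a median of 0.28. Hk3, the hexokinase of myeloid cells, overlapped at this age with 4.69, 5.54, 5.39 and 5.70 in Tg and 5.26, 5.62, 5.51 and 5.61 in WT mice. At PND 0, 12 of the 13 enzymes had negative changes, none called, with a median of -0.22 beside -0.02 for all features. The exception was Hk1, at 5.04, 5.30 and 4.87 in Tg and 4.75, 5.09 and 4.59 in WT mice, which overlapped.

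In adult mice the enzymes that rose were partly others. Hk3 read 5.95, 5.90, 5.90 and 6.24 on Tg arrays and 5.43, 5.21, 4.89 and 5.16 on WT arrays in SPF mice (1.77-fold, adjusted p = 0.00225). In GF mice it read 6.36, 6.26 and 6.56 in Tg and 4.98, 5.10 and 4.93 in WT mice (2.62-fold, adjusted p = 1.77e-05). The groups did not overlap in either housing. Pfkl (1.77-fold, adjusted p = 0.00547) and Pgam1 (1.5-fold, adjusted p = 0.0227) completed the 3 of 13 enzymes that rose in SPF mice. Tpi1, higher in Tg mice at PND 3, overlapped in SPF adults with 7.36, 7.39, 7.38 and 7.23 in Tg and 7.81, 7.36, 7.62 and 7.52 in WT mice (-0.24, adjusted p = 0.442). In GF mice Hk1 (1.52-fold, adjusted p = 0.0162), Hk2 (1.95-fold, adjusted p = 0.0288) and Pgk1 (1.58-fold, adjusted p = 0.00261) joined Hk3 to make 4 of 13, though the Pgk1 feature of lower mean did not pass in GF mice (0.43, adjusted p = 0.104). The Pgam1 call was lost without Tg replicate 1 or 4 or WT replicate 2 or 4 (0.48 to 0.58), the GF call of Hk1 without Tg replicate 3 or WT replicate 1 or 3 (0.49 to 0.60), and that of Hk2 without Tg replicate 3 or any WT array (0.70 to 1.04).

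Pfkp, another phosphofructokinase subunit, ran the other way in adults. Its SPF values were 7.97, 7.94, 8.05 and 7.88 in Tg and 8.08, 8.24, 8.32 and 8.37 in WT mice, and its GF values were 8.01, 8.04 and 8.27 in Tg and 8.32, 8.37 and 8.39 in WT mice. Every Tg array lay below every WT array in both housings, but neither change passed the test (-0.29, adjusted p = 0.395, and -0.25, adjusted p = 0.594).

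**Figure D3:**
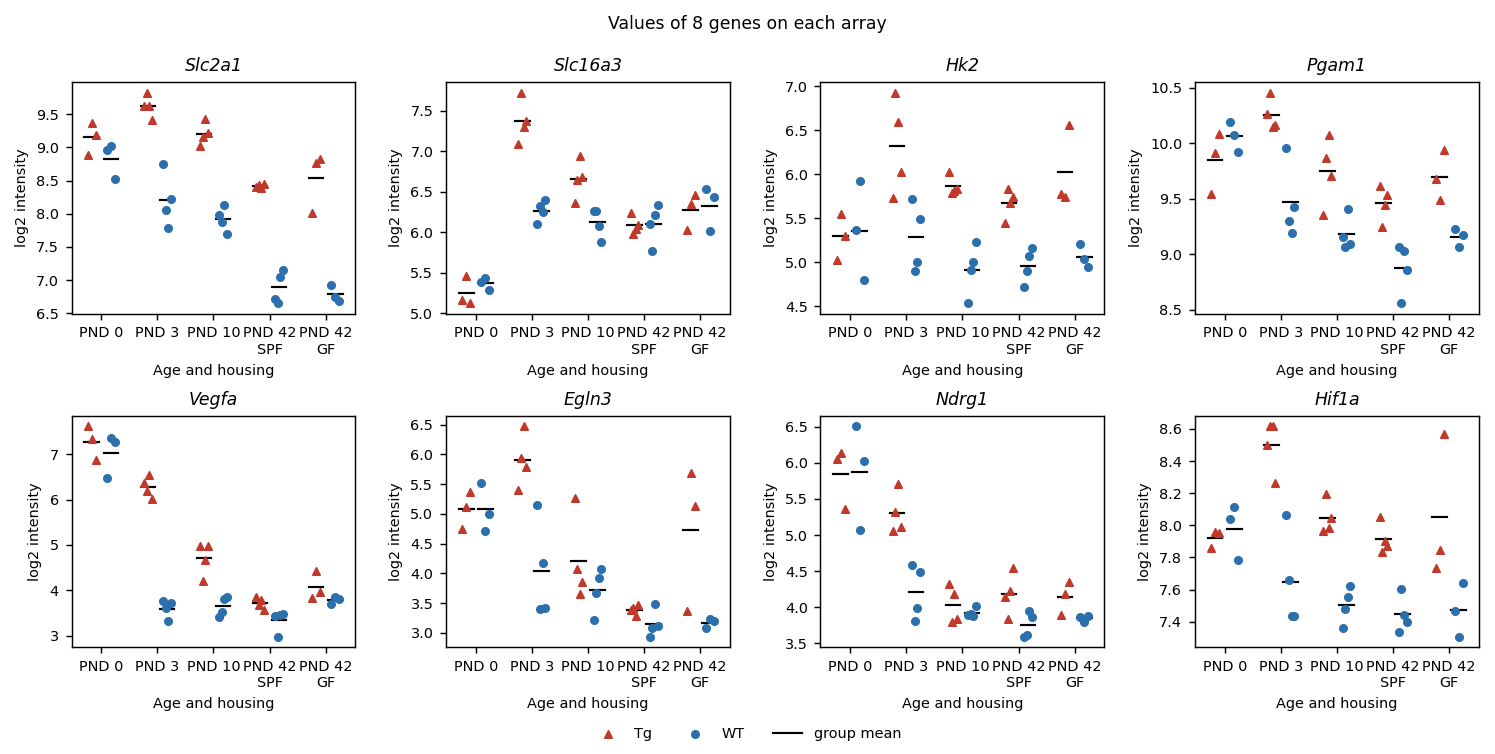
Log2 intensity (vertical axis, not starting at 0) of 8 genes on each array by age and housing; triangles are Tg, circles WT, and the black line is the group mean. At PND 3 the Tg arrays lie above the WT arrays in every panel, and the Vegfa values were 6.01 to 6.53 in Tg and 3.32 to 3.77 in WT mice.

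Regulators of glycolysis did not move as a group. Pfkfb3 and Pfkfb4 make and remove the sugar bisphosphate that activates phosphofructokinase, and Pdk1 is a kinase that keeps pyruvate out of the mitochondrial cycle. Pfkfb3 rose at PND 3, with 6.53, 6.98, 7.81 and 6.52 on Tg arrays and 6.19, 6.03, 5.87 and 5.90 on WT arrays (1.95-fold, adjusted p = 0.00563). Pfkfb4 overlapped at this age with 6.46, 6.45, 6.32 and 6.28 in Tg and 6.68, 6.41, 6.23 and 6.92 in WT mice (-0.18, adjusted p = 0.767). Pdk1 also overlapped, with 6.92, 6.66, 7.01 and 7.22 in Tg and 7.18, 7.16, 7.17 and 6.97 in WT mice (-0.17, adjusted p = 0.799).

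In adult SPF mice all 3 regulators had every Tg array below every WT array, where 5.64% of all features did so, and none passed the test. Pfkfb3 was at 6.36, 6.01, 5.90 and 5.78 in Tg and 6.51, 6.38, 6.92 and 6.49 in WT mice (-0.56, adjusted p = 0.171). Pfkfb4 was at 6.70, 6.95, 6.73 and 6.49 in Tg and 7.48, 7.04, 7.01 and 7.03 in WT mice (-0.42, adjusted p = 0.182). Pdk1 was at 6.28, 6.33, 6.25 and 5.94 in Tg and 7.0, 6.38, 6.53 and 6.79 in WT mice (-0.47, adjusted p = 0.104). The change of Pfkfb3 at PND 42 SPF minus that at PND 3 was -1.52 and passed the test of the difference (adjusted p = 0.005).

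Among the other hypoxia targets, Vegfa, the growth factor of blood vessels, changed most. Its PND 3 values were 6.37, 6.19, 6.53 and 6.01 on Tg arrays and 3.77, 3.61, 3.32 and 3.71 on WT arrays, a mean of 6.27 ± 0.23 in Tg and 3.60 ± 0.20 in WT mice (SD, n = 4 each). The difference was 6.37-fold (log2 2.67 ± 0.19 SE, adjusted p = 1.77e-10), and the WT values lay below that level, so that the fold is set against values near background. At PND 10 Vegfa read 4.97, 4.2, 4.66 and 4.99 in Tg and 3.41, 3.53, 3.82 and 3.84 in WT mice (2.08-fold, adjusted p = 0.00118). At PND 0 it was high in both genotypes, at 7.62, 7.32 and 6.87 in Tg and 6.48, 7.35 and 7.27 in WT mice. At PND 42 in SPF mice it read 3.57 to 3.86 in Tg and 2.98 to 3.49 in WT mice, without overlap but not called. In GF mice it read 3.82 to 4.42 in Tg and 3.69 to 3.86 in WT mice, which overlapped. The change at PND 10 was smaller than that at PND 3 by 1.62 on the log2 scale (adjusted p = 0.00766).

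Egln3 encodes a prolyl hydroxylase that marks HIF alpha subunits for degradation and is itself a HIF target. It read 5.40, 5.94, 6.47 and 5.79 on Tg arrays and 5.15, 3.40, 4.18 and 3.42 on WT arrays at PND 3 (3.64-fold, adjusted p = 0.00215), without overlap, WT replicate 1 being the closest to the Tg arrays and the WT mean of 4.04 near background. In GF mice it was at 3.37, 5.69 and 5.13 in Tg and 3.08, 3.23 and 3.20 in WT mice (2.95-fold, adjusted p = 0.0308), the WT arrays and Tg replicate 1 being near background. Without Tg replicate 1 the GF change was 2.24, and the call was lost without Tg replicate 2 (1.08), Tg replicate 3 (1.36) or any WT array (1.52 to 1.59). In SPF adults Egln3 was near background, at 3.29 to 3.47 in Tg and 2.93 to 3.49 in WT mice.

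Ndrg1, a stress-responsive gene, read 5.06, 5.31, 5.71 and 5.11 on Tg arrays and 4.59, 3.8, 3.98 and 4.49 on WT arrays at PND 3 (2.12-fold, adjusted p = 0.00253). Ankrd37, a HIF target that encodes an ankyrin repeat protein, read 4.77, 5.07, 5.72 and 5.19 in Tg and 4.37, 4.07, 3.75 and 4.08 in WT mice (2.17-fold, adjusted p = 0.0132). Ddit4, an inhibitor of mTORC1 signalling, read 4.78, 4.62, 4.48 and 4.00 in Tg and 3.29, 3.60, 3.10 and 3.73 in WT mice (2.06-fold, adjusted p = 0.00599), with the WT values of Ddit4 near background and the WT mean of Ankrd37 just below that level. The genotypes did not overlap in any of these genes at PND 3. The Ankrd37 call was lost without Tg replicate 3 (0.94) or WT replicate 3 (1.01). None of the 3 genes passed at PND 10 or PND 42.

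Bnip3, a receptor for the removal of mitochondria by autophagy, changed in opposite directions with age on its main feature. At PND 3 its values were 7.76, 8.06, 7.92 and 8.15 on Tg arrays and 7.14, 6.91, 7.06 and 7.05 on WT arrays (1.90-fold higher, adjusted p = 0.00245). At PND 42 SPF they were 6.06, 6.00, 6.43 and 5.70 in Tg and 7.02, 6.95, 6.58 and 6.72 in WT mice (1.70-fold lower, adjusted p = 0.013). The groups did not overlap at either age, and the difference between the changes was -1.70 (adjusted p = 0.000354). In GF adults Bnip3 read 6.30, 6.49 and 6.41 in Tg and 6.80, 6.72 and 7.24 in WT mice, again without overlap but not past the test (-0.52, adjusted p = 0.241). A second Bnip3 feature of lower mean had changes of 0.83 at PND 3 and -0.71 at PND 42 SPF, with adjusted p of 0.241 and 0.36. These had the same directions, but neither passed, and which locus each Bnip3 feature reads was not tested. The adult call was lost without Tg replicate 4 (-0.65) or WT replicate 1 (-0.70).

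The related receptor Bnip3l and the vasodilator peptide gene Adm were the genes called at PND 0. Bnip3l read 11.77, 10.73 and 11.45 on Tg arrays and 10.68, 10.70 and 10.77 on WT arrays, which overlapped (0.60, adjusted p = 0.00906). Adm read 2.80, 2.80 and 3.14 in Tg and 3.75, 3.91 and 3.49 in WT mice (-0.81, adjusted p = 4.43e-05), all near background. Without Tg replicate 1 the Bnip3l change was 0.37 (adjusted p = 0.132). Both genes were still called without Tg replicate 3, the library with the low Scnn1b level. Neither call held in a fit on the PND 0 arrays alone (adjusted p = 0.861 for Bnip3l and 0.799 for Adm). Bnip3l is abundant in maturing red cells. At PND 0, 5 of 7 erythroid markers were higher in Tg mice, where 2.74% of all features were higher. Their mean level was 3.63 to 7.66 on Tg and 3.70 to 3.9 on WT arrays, which overlapped. The part of these markers in the Bnip3l change was not tested. Egln1, P4ha1, P4ha2 and Mxi1, which encode a HIF hydroxylase, collagen prolyl hydroxylase subunits and an antagonist of MYC, did not pass in any comparison of genotype, although P4ha1 had Tg arrays all above WT arrays at PND 3 (0.56, adjusted p = 0.0965).

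Hif1a rose in Tg macrophages from PND 3 on. It read 8.50, 8.62, 8.62 and 8.26 on Tg arrays and 8.06, 7.66, 7.44 and 7.44 on WT arrays at PND 3 (1.80-fold, adjusted p = 0.000155). At PND 10 it read 7.96, 8.19, 7.98 and 8.05 in Tg and 7.36, 7.48, 7.55 and 7.62 in WT mice (1.46-fold, adjusted p = 0.0362). The genotypes also did not overlap at PND 42, with 8.05, 7.84, 7.90 and 7.87 in Tg and 7.34, 7.61, 7.44 and 7.40 in WT mice in SPF housing (1.38-fold, adjusted p = 0.046), and 7.73, 7.85 and 8.57 in Tg and 7.46, 7.31 and 7.64 in WT mice in GF housing (1.49-fold, adjusted p = 0.0282). The calls after PND 3 lay close to the threshold. They were lost at PND 10 without any array except WT replicate 4 (0.49 to 0.57), in SPF adults without any array except WT replicate 2 (0.42 to 0.50), and in GF adults without Tg replicate 3 (0.32) or WT replicate 1 or 2 (0.50 to 0.58). Hif1a protein is controlled mainly by its degradation, which RNA arrays do not measure.

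Epas1, which encodes HIF-2 alpha, followed a different course. At PND 3 it overlapped, with 7.19, 7.64, 7.46 and 7.64 in Tg and 7.70, 6.65, 7.20 and 7.41 in WT mice (0.25, adjusted p = 0.863). At PND 10 the Tg arrays read 8.44, 8.17, 8.31 and 8.63 and the WT arrays 6.76, 6.95, 6.76 and 7.74 (2.53-fold, adjusted p = 0.0105), a call lost without Tg replicate 4 (1.26) or WT replicate 3 (1.24). In SPF adults it was at 9.79, 10.24, 9.95 and 10.50 in Tg and 7.03, 7.34, 6.99 and 7.24 in WT mice, a 7.83-fold difference (log2 2.97 ± 0.29 SE, adjusted p = 3.54e-08). GF adults also differed without overlap, with 9.23, 9.94 and 10.06 in Tg and 6.92, 6.65 and 6.6 in WT mice (8.13-fold, adjusted p = 4.18e-07). The adult difference in SPF mice exceeded that at PND 3 by 2.72 (adjusted p = 0.000222). At PND 0 Epas1 was high in both genotypes and overlapped, with 9.91, 9.99 and 8.94 in Tg and 8.03, 9.0 and 10.01 in WT mice.

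Fbp1 encodes fructose bisphosphatase, which runs the phosphofructokinase step backwards in glucose synthesis. It was near background at PND 0 and PND 3, at 3.28 to 3.64 in Tg and 2.99 to 3.85 in WT mice. At PND 10 it varied widely within both genotypes, with 3.79, 3.63, 4.79 and 8.04 on Tg arrays and 5.44, 7.59, 5.29 and 9.33 on WT arrays, and did not pass the test (-1.85, adjusted p = 0.234). In SPF adults it read 9.06, 6.74, 8.87 and 8.69 in Tg and 3.15, 3.08, 3.46 and 3.43 in WT mice, a 33.4-fold difference (log2 5.06 ± 0.69 SE, adjusted p = 7.57e-06). In GF adults it read 9.43, 9.44 and 9.76 in Tg and 3.19, 3.63 and 3.24 in WT mice, a 73.2-fold difference (adjusted p = 3.85e-06). Fbp1 was thus the gene of the set with the largest adult change and the adult groups were far apart, the WT arrays being at background. The change at PND 42 SPF exceeded that at PND 3 by 4.92 (adjusted p = 0.00477).

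**Figure D4:**
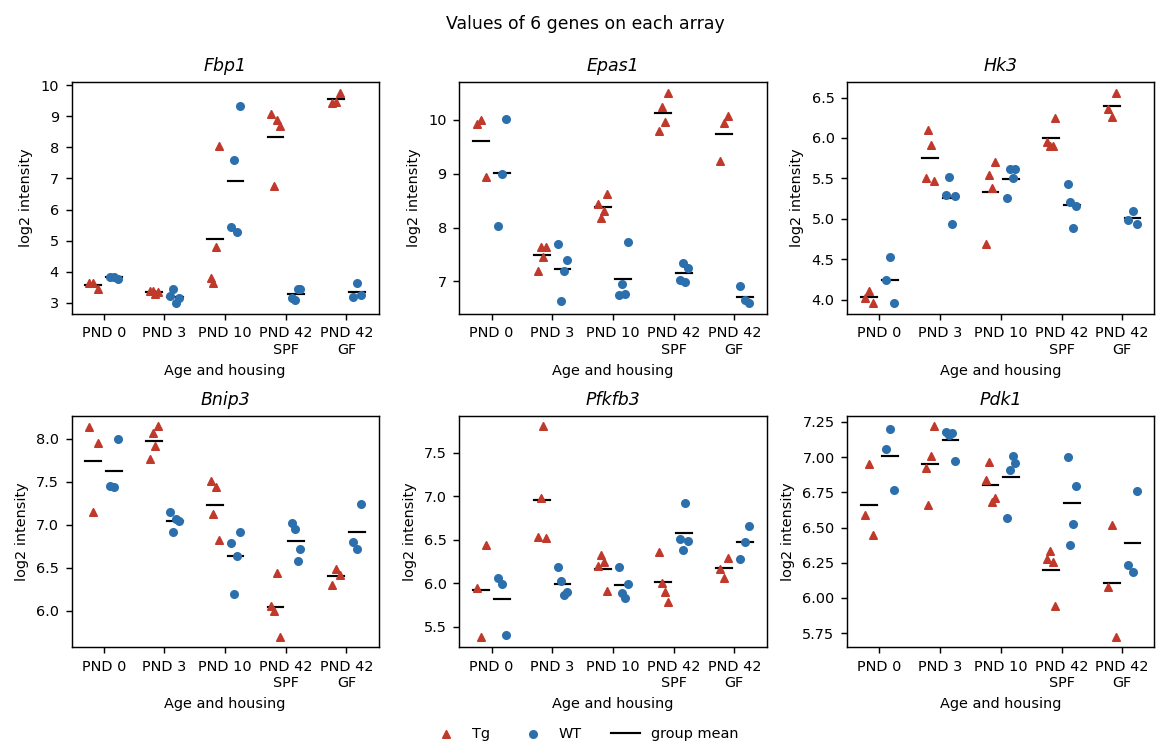
Log2 intensity (vertical axis, not starting at 0) of 6 genes on each array by age and housing; triangles are Tg, circles WT, and the black line is the group mean. Fbp1 read 6.74 to 9.76 on the adult Tg arrays and 3.08 to 3.63 on the adult WT arrays, whereas its values overlapped at PND 10.

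In WT mice the genes changed most between PND 0 and PND 3, when 8 were higher and 12 lower at PND 3, in a comparison in which 14% of all features were higher and 12% lower. Vegfa was 10.8-fold lower at PND 3 (log2 -3.43 ± 0.20 SE, adjusted p = 5.98e-14) and Epas1 3.42-fold lower (adjusted p = 6.08e-05). Pfkfb4 rose at this step, with WT values of 6.68, 6.41, 6.23 and 6.92 at PND 3 and 4.94, 5.17 and 4.48 at PND 0 (log2 1.70, adjusted p = 7.73e-09). Over the same step 9 of 11 alveolar epithelial markers were lower, at 4.74 to 5.18 on the WT arrays of PND 3 and 7.63 to 8.42 on those of PND 0, 10 of 10 club and ciliated cell markers were lower, at 5.31 to 5.44 at PND 3 and 7.66 to 8.74 at PND 0, and 7 of 10 fibroblast markers were lower, at 3.23 to 3.41 at PND 3 and 4.34 to 5.03 at PND 0. The part of these markers in the changes was not tested.

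Tg macrophages moved upward between PND 0 and PND 3, with 15 genes higher and 3 lower (16% and 14% of all features). Slc16a3 rose most, by 2.13, followed by Hk3 (1.72), Pfkl (1.64) and Pfkfb4 (1.62), while Epas1 fell by 2.13, Vegfa by 1.00 and P4ha2 by 0.69. The P4ha2 means were near background at both ages, and its Tg values at PND 0 were 4.31, 3.53 and 3.66. P4ha1 rose by 0.96 (adjusted p = 0.000326). Markers of 4 other tissues were lower at PND 3: 9 of 11 alveolar epithelial (4.79 to 5.06 at PND 3 and 7.57 to 7.96 at PND 0), 9 of 10 club and ciliated (4.92 to 5.52 and 8.13 to 8.58), 12 of 16 skeletal muscle (3.43 to 3.60 and 5.40 to 6.29) and 10 of 10 fibroblast markers (3.28 to 3.39 and 4.42 to 7.41). Neutrophil markers were higher, 11 of 20, with 2 lower. Between PND 3 and PND 10, 1 gene was higher and 9 lower in Tg mice (0.518% and 0.936%), whereas in WT mice 1 was higher and none lower (0.0311% and 0.1%). The genes that fell in Tg mice were led by Egln3 (-1.69), Vegfa (-1.57), Ndrg1 (-1.26) and Ddit4 (-1.08). Of the 20 neutrophil markers 10 also fell at this step in Tg mice, at a mean level of 4.65 to 5.17 at PND 10 and 6.18 to 7.22 at PND 3, and 6 of 14 alveolar macrophage markers rose. The part of the markers in these steps was not tested. The WT gene that rose was Fbp1 (13.1-fold, adjusted p = 0.0118). This call was lost without WT PND 3 replicate 1 or WT PND 10 replicate 2 or 4, and in a fit on the compared groups alone. The next largest WT changes, of Pfkl (-0.63, adjusted p = 0.309) and Pfkfb4 (0.53, adjusted p = 0.349), did not pass. At PND 10 the WT arrays read 5.66, 5.74, 6.03 and 5.44 for Pfkl and 7.12, 7.11, 7.17 and 6.96 for Pfkfb4.

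From PND 10 to PND 42 in SPF mice, 5 genes were higher and 5 lower in Tg mice (2.58% and 2.03% of all features), and 2 were higher and 2 lower in WT mice (1.32% and 1.19%). Fbp1 moved in opposite directions at this step, as it rose by 3.28 in Tg mice (adjusted p = 0.00301) and fell by 3.63 in WT mice (adjusted p = 0.00182). Epas1 rose by 1.73 (adjusted p = 0.000332) and P4ha1 by 0.74 (adjusted p = 0.0148) in Tg mice, in which 6 of 11 dendritic cell and 6 of 10 club and ciliated cell markers also rose. Pfkp rose in WT mice, with 8.08, 8.24, 8.32 and 8.37 at PND 42 and 7.46, 7.70, 7.47 and 7.88 at PND 10 (0.62, adjusted p = 0.0151).

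Germ-free housing changed none of the 33 genes past the threshold in either genotype (limma), where 0.076% of all features were higher and 0.0657% lower in GF than in SPF Tg mice, and 0.0104% higher and 0.0553% lower in GF than in SPF WT mice. At an unadjusted p of 0.05, 6 genes differed between GF and SPF Tg mice and 1 between GF and SPF WT mice. The Egln3 difference of 1.35 in Tg mice had an adjusted p of 0.278. The genotype effect did not differ between housings for any gene past the threshold, with 4 at an unadjusted p of 0.05, where 0.00346% of all features were larger in GF mice and 0% smaller.

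Other genes of these pathways, listed by role, showed how far the pattern extended at PND 3. Of 33 further hypoxia targets, 4 were higher and 2 lower in Tg mice, beside 2.17% and 1.87% of all features, with a median of 0.13. Hilpda, which coats lipid droplets, rose by 2.60 (adjusted p = 8.39e-06) and Lox by 1.83, while Flt1, a receptor of VEGF, fell by 1.92 (adjusted p = 6.41e-07) as Vegfa rose. Of 15 other glycolysis and pyruvate genes none was called, nor were any of 15 citric acid cycle genes, 7 of gluconeogenesis and 11 regulators of HIF. Pdk2 (-0.59), a kinase of pyruvate dehydrogenase, and Rpia (-0.81), of the pentose phosphate pathway, were the genes called in their lists of 9 and 6.

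At PND 42 the companion lists had other called genes, named here after their values were seen. Arnt2, a partner of HIF alpha subunits, was higher in SPF mice by 2.53 (adjusted p = 4.75e-11) and in GF mice by 1.67 (adjusted p = 1.78e-06). Pdk4, a starvation-responsive kinase of pyruvate dehydrogenase, was higher by 2.68 and 1.95, and Slc16a1, another lactate carrier, by 1.29 and 1.72 in SPF and GF mice. Of the 33 further hypoxia targets 4 were higher and 1 lower in SPF mice (2.72% and 1.77% of all features), and 2 were higher and 1 lower in GF mice (3.14% and 1.77%). Flt1 was lower in both.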

How the data were processed

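RNA of Ly-6G-negative lung lavage cells was measured on 36 arrays, each a pool of 3 pups (PND 0, 3 and 10) or a single mouse (PND 42). The authors deposited log2 intensities, made per the labels with Partek 6.5 and RMA, and by the methods with background correction, quantile normalization and median polish. The table deposited holds 35556 transcript cluster features, of which 6616 presumed array controls were left out and 28940 analysed, 21218 of them with exactly 1 symbol. Quantile normalization makes values relative to the rest of each array, and low intensities flatten towards background, which understates folds of dim genes.

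Models with 1 mean per group of 10 were fitted to all 36 arrays with limma 3.58.1 in R 4.3.3, and 16 contrasts were tested two-sided, with Benjamini-Hochberg adjustment over all analysed features of a contrast. A gene is said to rise or fall at an adjusted p of 0.05 or less. All p-values rest on a spread pooled over groups, since the smallest p of an exact permutation test is 0.1 with 3 arrays a group and 0.0286 with 4. Promoters were searched with Python 3.11.15. The procedure was tested on simulated data for 3 genotype comparisons, PND 0, PND 3 and PND 42 SPF, of which PND 0 gave the most false calls.

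The genes, their classes, the companion lists and the tests were chosen with earlier results of these data known. Values on each array are given for up to 4 genes per class with the largest change at PND 3, for genes that ran against their class in a comparison described, for Hif1a, Epas1 and Fbp1, and for the 3 largest changes of WT mice with age. Of companion lists up to 4 genes called at PND 3 are named. Replicate numbers were not treated as pairs: of 18 same-numbered pairs, 1 correlated above 0.1 (range -0.126 to 0.244). The labels number the replicates as biological, and the number of arrays limits the precision. Alternatives were the 2-fold limit, a fit on the compared groups alone, group weights, a trended robust prior, no moderation, median centring, a filter on dim features, all features kept, the second feature of a gene, the replicate number as a block, and the omission of single arrays. Ly6g is not analysed here.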

Additional observations from a re-analysis of the deposited data

Results flagged for a closer look

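In groups of 4 arrays, 198 pairs of gene and group were checked for an array far from the others, and 10 were found; chance alone gives about 1 in 20. For Fbp1, Tg PND 42 SPF replicate 2 was at 6.74 (others 8.69 to 9.06). For Hk3, Tg PND 42 SPF replicate 4 was at 6.24 (others 5.90 to 5.95), and for Vegfa, WT PND 42 SPF replicate 2 at 2.98 (others 3.44 to 3.49). For Pfkfb4, WT PND 42 SPF replicate 1 was at 7.48 (others 7.01 to 7.04), and for Aldoc, Tg PND 3 replicate 3 at 7.52 (others 8.17 to 8.27). For Pdk1, WT PND 3 replicate 4 was at 6.97 (others 7.16 to 7.18), and for Pgk1, Tg PND 10 replicate 1 at 9.58 (others 9.30 to 9.34). WT PND 10 replicate 4 stood apart for Ndrg1, at 4.01 (others 3.88 to 3.9), and for Ankrd37, at 3.71 (others 3.95 to 3.98). For P4ha2, Tg PND 10 replicate 2 was at 3.09 (others 3.15 to 3.16).

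The Tg minus WT change differed between ages, by the limma test of the difference itself, for 8 pairs of gene and ages. Against PND 3, the change of Vegfa differed by -1.62 at PND 10 (adjusted p = 0.00766) and by -2.29 at PND 42 SPF (adjusted p = 3.96e-06). The genes that fell short of their PND 3 change at PND 42 SPF were Pfkfb3 (-1.52, adjusted p = 0.005), Tpi1 (-0.95, adjusted p = 0.00278), Slc16a3 (-1.12, adjusted p = 0.00152) and Bnip3 (-1.70, adjusted p = 0.000354). Epas1 (2.72, adjusted p = 0.000222) and Fbp1 (4.92, adjusted p = 0.00477) exceeded it.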

How the results depend on the processing

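No genotype change that was called in the main fit or in an alternative reversed its direction under any alternative run. Changes called in neither could reverse, as for Pkm at PND 42 GF (0.14, and -0.03 for its other feature). Adding a limit of 2-fold left 0 genes called at PND 0 (2 without it), 8 of 16 at PND 3, 3 of 6 at PND 10, 3 of 8 at PND 42 SPF and 5 of 9 at PND 42 GF, and, over age, 8 of 20 (PND 0 to 3), 2 of 4 (PND 10 to 42) in WT and 9 of 18 (PND 0 to 3), 4 of 10 (PND 3 to 10) and 3 of 10 (PND 10 to 42) in Tg mice, a stricter call by construction. A fit on the compared groups alone, which has fewer arrays, gave 0 at PND 0, 12 at PND 3 and 5 at PND 42 GF, 13 for PND 0 to 3 in WT (12 shared), 0 for PND 3 to 10 in WT and 5 in Tg (4 shared), and 0 for the change of the Tg effect from PND 3 to PND 10. Leaving out dim features left 1 gene at PND 0, since Adm was among those left out. Other alternatives kept each count within 1.5 times. Median centring came closest to that limit for PND 0 to 3, with 27 calls in Tg mice (18 in the main fit) and 15 in WT mice (13 shared with the main 20).

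Leaving out 1 array gave 1 to 7 calls at PND 0 (1 without Tg replicate 1 and 7 without WT replicate 3), 13 to 17 at PND 3, 2 to 6 at PND 10 (2 without WT replicate 3, Slc2a1 and Vegfa), 5 to 7 at PND 42 SPF (5 without Tg replicate 4) and 5 to 9 at PND 42 GF (5 without WT replicate 1 or Tg replicate 3). It gave 15 to 20, 0 to 1 and 2 to 4 for the WT steps of age, 17 to 21, 6 to 10 and 6 to 10 for the Tg steps, 0 to 0 and 0 to 1 for GF against SPF in WT and Tg mice, 1 to 1 and 7 to 8 for the change of the Tg effect from PND 3 to PND 10 and to PND 42 SPF, and 0 to 0 between housings. The Bnip3l change at PND 0 was 0.37 without Tg replicate 1 (adjusted p = 0.132). Calls that held in every alternative were Slc2a1, Slc16a3, Vegfa, Egln3, Ndrg1 and Ddit4 at PND 3, Slc2a1 and Vegfa at PND 10, Slc2a1, Epas1 and Fbp1 at PND 42 SPF, and these with Hk3 at PND 42 GF. With the replicate number as a block, which no label says pairs the mice, 2 genes were called at PND 0, 16 at PND 3, 4 at PND 10, 7 at PND 42 SPF and 9 at PND 42 GF. Background limits the dim genes: Eno2, Adm and P4ha2 had no group mean above it, though single arrays did lie above it for Eno2 and P4ha2. Vegfa and Ddit4 were at it in WT mice after PND 0, and Egln3 and Ankrd37 in 5 and 6 of 10 groups, so that the folds of these dim genes are set against background. Where a cause is not named, the cause was not tested.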
